A study of Mus musculus with 6 samples.

Results

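Collagen chain genes encode the alpha chains from which collagens are built. They were taken as every gene of the deposited expression table whose symbol reads Col, a number, the letter a and a number, which gave 44 of the 23951 genes. RNA sequencing covered 3 untreated mouse melanoma lines, with 2 libraries per line. The study's methods name cells as the source of the RNA, while the protocol in the labels allows for cells or xenografts. B16-F1 is a line of low metastatic potential, B16-F1R2 was derived from a lymph node metastasis, and B16-F1R2L came from a lung metastasis of such a lymph node line. B16-F1 was obtained from the American Type Culture Collection and both variants from a different laboratory, so the line cannot be told apart from its source, and each variant is a single line. Whether both libraries of each line were grown as separate cultures is not given in the labels, so p-values measure only the spread between these libraries, which may be technical.

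Collagens are secreted or membrane proteins in which 3 alpha chains wind into a triple helix, a fold that needs glycine at regular steps along each chain. Fibrillar collagens pack into the fibrils of skin, bone and tendon, network collagens such as type IV form the sheet of the basement membrane, FACITs (fibril-associated collagens with interrupted triple helices) sit on fibrils, and transmembrane collagens anchor cells to the matrix. In skin, fibroblasts of the dermis make most of the fibrillar collagen, and melanocytes lie on the basement membrane that invading melanoma cells cross.

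The coding sequences were not used to choose the genes. In the NCBIM37 (mm9) annotation, 43 of the 44 genes had a coding sequence. The longest unbroken run of triplets that begin with glycine held 216 to 344 triplets in the 11 fibrillar genes and 28 to 113 in the 32 other genes. The fibrillar genes had between 21 and 33 exons of exactly 54 bases and the other genes between 0 and 28, the most in the FACIT gene Col22a1. One such exon is shown for each of the 2 fibrillar chains with the highest levels in B16-F1R2, with capitals for the glycine codons that open a triplet of amino acids and not for other glycine codons, at chr11:94801218-94801271 (plus strand, exon 8 of 51 of Col1a1) and at chr2:27820771-27820824 (plus strand, exon 15 of 66 of Col5a1), both NCBIM37.
Col1a1: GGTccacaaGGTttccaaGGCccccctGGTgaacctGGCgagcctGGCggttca
Col5a1: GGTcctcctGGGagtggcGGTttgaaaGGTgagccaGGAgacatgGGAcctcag
Each was picked as the first exon of 54 bases, in frame, in which glycine opens all 6 triplets.

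Collagen transcripts were more abundant in both metastatic variants than in B16-F1. Levels are FPKM, fragments per kilobase of transcript scaled to the mapped reads of a library, a scale set per length that allows genes to be compared. Summed over the 44 genes, the FPKM were 21.3 and 22.4 (B16-F1), 75.0 and 79.2 (B16-F1R2) and 58.4 and 58.0 (B16-F1R2L). The lines did not overlap, and B16-F1R2 lay highest. Fibrillar chains made up 34.2% and 33.5% of this sum (B16-F1), 53.3% and 53.8% (B16-F1R2) and 36.1% and 34.4% (B16-F1R2L), so it was over 50% in B16-F1R2 alone. Most of the fibrillar sum there came from 2 of the 11 genes, with 16.8 and 17.1 FPKM for Col1a1 and 19.3 and 21.7 for Col5a1 out of 40.0 and 42.6. Network chains gave 40.1% and 38.4%, 28.6% and 28.5%, and 33.3% and 34.1% in the same order. In bulk RNA, fewer cells that use a gene and less RNA per cell cannot be told apart.

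**Figure D1:**
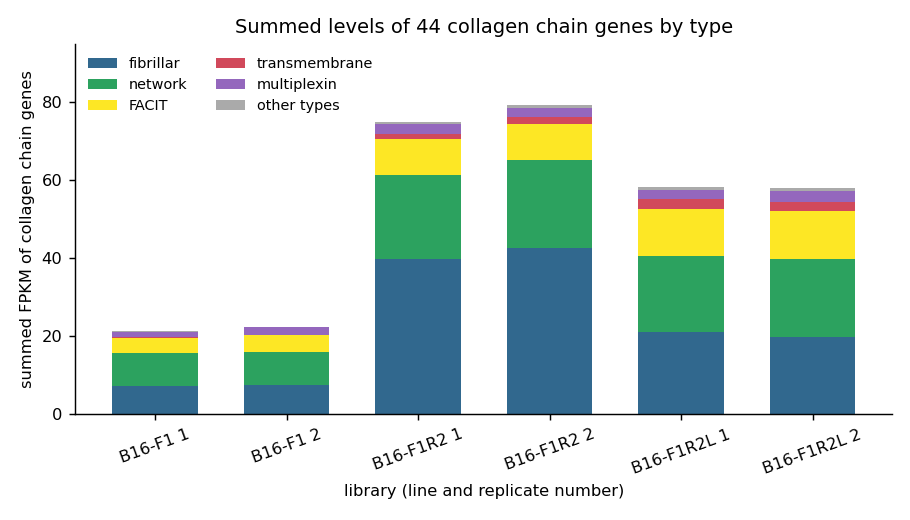
Stacked bars give the summed FPKM of the 44 collagen chain genes in each of the 6 libraries, by collagen type, from 0. The B16-F1 libraries reach 21.3 and 22.4, those of B16-F1R2 75.0 and 79.2, and those of B16-F1R2L 58.4 and 58.0.

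The libraries held 596657 to 672794 FPKM in sum, and their depth was estimated at 12000000 to 14800000 reads from the smallest values of genes with 1 transcript, since read totals were not used here. At this depth 1 read was worth 0.00586 to 0.0286 FPKM for a collagen gene, depending on its length. All 7 melanocyte markers checked were present in every library. Because genes that most cells use can also be listed at an exact 0, such as Mia3, an exit receptor for collagen in the endoplasmic reticulum, a gene at 0 is described only as listed at 0.

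Of the 44 genes, 13 reached 1 FPKM in at least 2 libraries and were tested with limma on log2(FPKM + 0.1), a scale that understates the change of low genes. The tested genes were 4 fibrillar, 4 network, 3 FACIT, 1 transmembrane and 1 multiplexin chain. They lie on 10 chromosomes. None shares a stretch of 50 bases with a protein-coding transcript of another gene, the only sequences searched. The exons of 5 overlap exons of a gene on the opposite strand (Col1a1, Col4a1, Col4a2, Col5a1 and Col15a1). The library kit was stranded, but whether strand was used in counting is not given in the sources used here. Over these 13 genes the libraries of each line differed at the median by 0.20, 0.11 and 0.23 on the log2 scale in B16-F1, B16-F1R2 and B16-F1R2L, against 0.07, 0.09 and 0.10 over all 11379 tested genes.

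**Figure D2:**
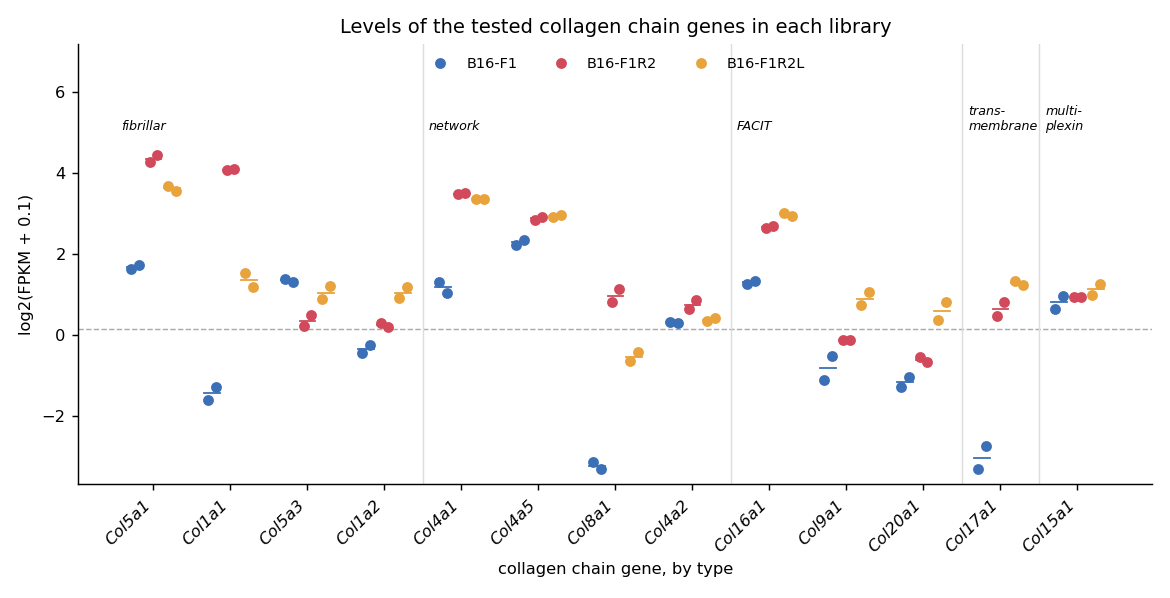
Each point is 1 library and each short bar the mean of a line, on the scale log2(FPKM + 0.1), for the 13 tested collagen chain genes ordered by type, with a dashed line at 1 FPKM. Col1a1, Col8a1 and Col17a1 lie below that line in both B16-F1 libraries, and the points of B16-F1R2 lie highest for Col1a1, Col5a1, Col4a1, Col4a2 and Col8a1.

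In B16-F1R2 against B16-F1, 8 of the 13 tested genes were higher and 1 was lower at a Benjamini-Hochberg adjusted p under 0.05 from limma. Over all 11379 tested genes 28.2% were higher and 27.2% lower (55.4% in either direction), so the share of higher collagen genes was above this background and that of lower genes below it. The median log2 fold change was 0.69 for the collagen genes and 0.0046 for all tested genes. The 6 of the 13 that lay under 1 FPKM in a B16-F1 library could pass the filter only through the line in which they are high, so the counts and medians over the 13 are descriptions and not support. Among the 7 genes at 1 FPKM or more in both B16-F1 libraries, 4 were higher, 1 was lower and 2 were not called. Quantile normalization gave 7 higher and 3 lower.

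In B16-F1R2L against B16-F1, which shares the B16-F1 libraries with the comparison above, 10 of the 13 genes were higher and 0 lower, against 29.5% and 27.1% of all tested genes (56.7% in either direction). At an unadjusted p under 0.05 limma also gave 0 lower. The median log2 fold change was 1.71, and 0.02 over all tested genes. Of the 7 genes at 1 FPKM or more in B16-F1, 4 were higher and 3 were not called. Quantile normalization gave 8 higher and 2 lower.

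Between the variants, 5 collagen genes rose and 3 fell in B16-F1R2L against B16-F1R2, where 12.1% of all tested genes were higher and 10.5% lower (22.6% in either direction). The median log2 fold change was 0.18 for the collagen genes and 0.02 for all tested genes. Col9a1 and Col20a1 passed the filter only through B16-F1R2L and Col8a1 only through B16-F1R2, so these counts and medians are descriptions and not support. Among the 7 genes at 1 FPKM or more in both B16-F1 libraries, 2 were higher, 1 was lower and 4 were not called. The calls between the variants were less firm. Without B16-F1R2 replicate 1, B16-F1R2 replicate 2 or B16-F1R2L replicate 2, limma called 0 higher and 2 lower (5 higher at an unadjusted p under 0.05 in each case), and the 2 lower genes were Col1a1 and Col5a1. Without any of the other 3 libraries 3 were higher and 3 lower, and quantile normalization gave 3 higher and 4 lower.

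**Figure D3:**
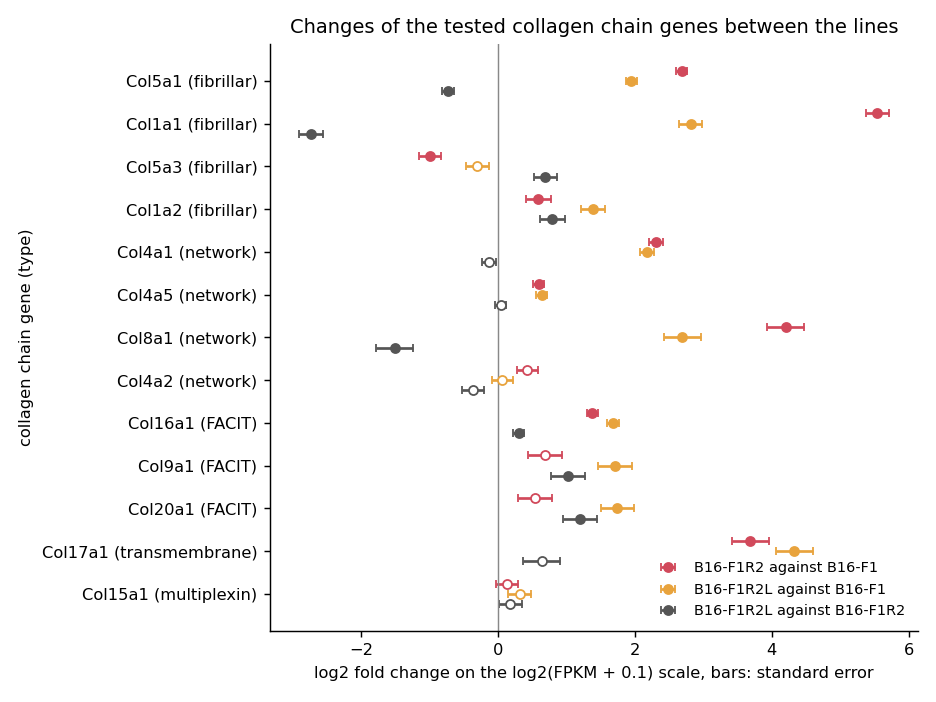
Points give the log2 fold change of each tested collagen chain gene on the log2(FPKM + 0.1) scale in the 3 comparisons, bars its standard error, and filled points an adjusted p under 0.05 from limma. Col1a1 has the largest rise in B16-F1R2 against B16-F1 (5.54) and the largest fall in B16-F1R2L against B16-F1R2 (-2.73).

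Of the 11 fibrillar genes, 4 were tested, and in B16-F1R2 against B16-F1 3 of them rose and 1 fell, where 28.2% of all tested genes were higher and 27.2% lower. Of these 4, Col1a1 and Col1a2 lay under 1 FPKM in B16-F1 and passed the filter only through the variants. Col1a1 encodes the main chain of type I collagen, the collagen of skin and bone, and lies on chromosome 11 of NCBIM37 from 94797538 to 94814356. Its FPKM were 0.226 and 0.311 (B16-F1), 16.8 and 17.1 (B16-F1R2) and 2.81 and 2.19 (B16-F1R2L). The 3 lines were fully apart, and the lung line lay between the others. Against B16-F1 it rose by 5.54 on the log2 scale in B16-F1R2 (standard error 0.17, adjusted p = 2.78e-06, limma) and by 2.82 in B16-F1R2L (0.17, adjusted p = 3.94e-05). Between the variants the log2 fold change of B16-F1R2L was -2.73 (0.17, adjusted p = 0.000996). This gene held its direction and call under all 18 alternatives in each comparison, although the pseudocount moved the rise in B16-F1R2 between 3.82 and 5.95 and that in B16-F1R2L between 1.46 and 3.17.

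Col1a2 (chromosome 6, 4454814 to 4491543) encodes the partner chain of type I collagen. Its FPKM were 0.635 and 0.742 (B16-F1), 1.13 and 1.04 (B16-F1R2) and 1.77 and 2.17 (B16-F1R2L). Unlike Col1a1, it was highest in the lung line. It rose by 0.59 (adjusted p = 0.0310, limma) in B16-F1R2, but it lost this call without B16-F1 replicate 1 (adjusted p = 0.112) or without either B16-F1R2 library (0.118 and 0.0713), and quantile normalization turned its sign to -0.24. In B16-F1R2L it rose by 1.39 against B16-F1 (adjusted p = 0.000991) and by 0.80 against B16-F1R2 (adjusted p = 0.0280), the latter lost without either B16-F1R2 library or B16-F1R2L replicate 2 (0.0958 to 0.125) and without a filter (0.0538).

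Col5a1 (chromosome 2, 27741945 to 27895034) encodes the main chain of type V collagen, which starts and thins type I fibrils, and had the highest FPKM of the 44 genes in each library of the variants, while Col4a5 lay above it in both B16-F1 libraries. Its FPKM were 3.01 and 3.20 (B16-F1), 19.3 and 21.7 (B16-F1R2) and 12.8 and 11.7 (B16-F1R2L). As with Col1a1, the lung line lay between the others without overlap. The log2 fold change against B16-F1 was 2.68 (standard error 0.09, adjusted p = 3.29e-06, limma) in B16-F1R2 and 1.95 (0.09, adjusted p = 1.08e-05) in B16-F1R2L. Between the variants the lung line was lower (log2 fold change -0.73, standard error 0.09, adjusted p = 0.00562).

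Col5a3 (chromosome 9, 20574494 to 20619511), another type V chain, ran the other way. Its FPKM were 2.50 and 2.39 (B16-F1), 1.07 and 1.30 (B16-F1R2) and 1.75 and 2.21 (B16-F1R2L). It fell in B16-F1R2 (log2 fold change -0.99, adjusted p = 0.00284, limma) and was higher in the lung line than in B16-F1R2 by 0.69 (adjusted p = 0.0323), a call lost under quantile normalization (0.0579), without a filter (0.0689), with the 4 libraries alone (0.0650) and without any library but B16-F1R2L replicate 1 (0.0591 to 0.140). In B16-F1R2L against B16-F1 the change was -0.30 (adjusted p = 0.166), which passed the threshold after quantile normalization, at -0.75.

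Fibroblasts and other cells that make collagen were checked by their markers. Of 10 fibroblast markers, Dcn, Lum, Dpt, Thy1, Pi16 and Tcf21 were listed at 0 in all libraries. Their summed FPKM ran from 0.764 to 0.831 in B16-F1, 1.28 to 1.39 in B16-F1R2 and 1.20 to 1.51 in B16-F1R2L, and 1 of them, Postn, reached 1 FPKM. Against B16-F1, Postn, which encodes periostin, rose by 0.59 in B16-F1R2 and 0.57 in B16-F1R2L (adjusted p = 0.0383 and 0.0422, limma). Mfap5 was listed at 0 in both B16-F1 libraries and had 0.120 and 0.174 FPKM (B16-F1R2) and 0.316 and 0.0590 (B16-F1R2L). Pdgfra overlapped between the lines, and Fap had at most 0.0254 FPKM. Of 6 endothelial markers, Cdh5, Kdr, Tek and Lyve1 were listed at 0 throughout, and the summed FPKM were 1.63 to 1.66, 1.55 to 1.72 and 2.25 to 2.38 in the order of the lines. These sums came from Pecam1, an adhesion molecule, and Prox1, a factor of lymphatic endothelium, which differed in pattern. Pecam1 was listed at 0 in both B16-F1 libraries and had 0.758 and 0.752 FPKM (B16-F1R2) and 1.09 and 1.26 (B16-F1R2L). Prox1 fell by 0.84 in B16-F1R2 and 0.49 in B16-F1R2L (adjusted p = 0.00572 and 0.0430, limma). Of 5 markers of lung epithelium, Sftpc and Scgb1a1 were listed at 0 throughout, and the sums were 0.383 to 0.421, 0.504 to 0.529 and 0.692 to 0.905. The 6 leukocyte markers summed to 1.02 to 1.82, 13.7 to 14.3 and 18.2 to 18.6 FPKM, most of it Cd79a in the variants, with Ptprc, Cd3e and Itgam listed at 0. The summed FPKM of the 7 melanocyte markers were 14970 to 15007 in B16-F1, 7909 to 8125 in B16-F1R2 and 8924 to 8933 in B16-F1R2L. In both variants 6 of the 7 fell (27.2% and 27.1% of all tested genes), while Mitf, a regulator of melanocytes, was not called in B16-F1R2 (-0.15, adjusted p = 0.106, limma) and rose by 0.40 in B16-F1R2L (adjusted p = 0.00315). The part of these differences in the collagen values was not tested.

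Of the 9 network genes, 4 were tested, and 3 rose in each variant against B16-F1 (28.2% and 29.5% of all tested genes) while Col4a2 did not pass the test. Col8a1 passed the filter only through B16-F1R2. Col4a1 and Col4a2 encode the common chains of type IV collagen and are a gene pair read in opposite directions. In NCBIM37 Col4a1 spans 11198423 to 11312826 on the minus strand of chromosome 8 and Col4a2 11312805 to 11449287 on the plus strand, so their spans overlap by 22 bases. Because the pair is described by its shared start, these bases are shown, from chr8:11312805-11312826 of GRCm38.p6 on the plus strand.
Col4a1 and Col4a2 start: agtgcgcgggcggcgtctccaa
Guanine and cytosine make up 72.7% of this stretch.

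Col4a1 passed the test in both variants and Col4a2 in neither. Col4a1 had 2.40 and 1.96 FPKM (B16-F1), 11.1 and 11.2 (B16-F1R2) and 10.2 and 10.1 (B16-F1R2L). Col4a2 had 1.15 and 1.13, 1.45 and 1.71, and 1.16 and 1.24 FPKM in the same order. Both variants thus lay several-fold above B16-F1 in Col4a1 and close to it in Col4a2. The log2 fold changes against B16-F1 were 2.31 (standard error 0.10, adjusted p = 1.19e-05, limma) in B16-F1R2 and 2.18 (0.10, adjusted p = 1.45e-05) in B16-F1R2L for Col4a1. For Col4a2 they were 0.43 (0.16, adjusted p = 0.0547) and 0.07 (0.16, adjusted p = 0.733). The Col4a2 value in B16-F1R2 passed the threshold under a pseudocount of 1, without a trend in the variance, and after correction for gene length and GC content, and the value in B16-F1R2L turned to -0.85 and was called lower after quantile normalization (adjusted p = 0.00706).

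Col4a5 (chromosome X, 137909928 to 138123778) encodes a chain of the type IV network of kidney and other tissues. Its FPKM were 4.56 and 5.02 (B16-F1), 7.12 and 7.48 (B16-F1R2) and 7.39 and 7.66 (B16-F1R2L). Both variants lay above B16-F1 and overlapped each other. The log2 fold changes against B16-F1 were 0.60 (adjusted p = 0.00116, limma) and 0.64 (adjusted p = 0.000851). Its neighbour Col4a6, 1308 bases away and read in the opposite direction, was listed at 0 in 5 libraries and at 0.00882 FPKM in the second B16-F1R2L library. The third pair of type IV genes, Col4a3 and Col4a4, lies 71 bases apart and stayed low, with at most 0.0293 FPKM for Col4a3 and 0.288 for Col4a4.

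Col8a1 (chromosome 16, 57624371 to 57754850) encodes a short chain that forms hexagonal lattices beneath endothelia. It had 0.0127 FPKM and a listed 0 (B16-F1), 1.65 and 2.08 (B16-F1R2) and 0.535 and 0.643 (B16-F1R2L). With 1 read worth about 0.0141 FPKM for this gene, B16-F1 held about 1 read in 1 library, and the lines did not overlap. The log2 fold changes against B16-F1 were 4.20 (adjusted p = 5.57e-05, limma) in B16-F1R2 and 2.69 (adjusted p = 0.000347) in B16-F1R2L, and their size rests on the pseudocount. They ran from 1.51 to 6.95 and from 0.66 to 5.31 with pseudocounts of 1 and 0.01, and the value in B16-F1R2L was 0.16 and no longer called after quantile normalization (adjusted p = 0.749). B16-F1R2L lay below B16-F1R2 by -1.51 (adjusted p = 0.0156), a call lost without either B16-F1R2 library (0.0707 and 0.0786) or the second B16-F1R2L library (0.0576). The partner chain Col8a2 was listed at 0 in 5 libraries and reached 0.0469 FPKM.

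The 3 tested FACIT genes, of 9, had their highest levels in the lung line, and 1 rose in B16-F1R2 and all 3 rose in B16-F1R2L against B16-F1 (28.2% and 29.5% of all tested genes). Col9a1 and Col20a1 passed the filter only through B16-F1R2L. Col16a1 (chromosome 4, 129725084 to 129776527) encodes a chain found near small fibrils and basement membranes. Its FPKM were 2.29 and 2.43 (B16-F1), 6.20 and 6.38 (B16-F1R2) and 7.95 and 7.64 (B16-F1R2L). The levels of the 3 lines were apart, in the order B16-F1, B16-F1R2 and B16-F1R2L. The log2 fold changes against B16-F1 were 1.38 (standard error 0.08, adjusted p = 3.79e-05, limma) and 1.68 (0.08, adjusted p = 1.61e-05). The difference of 0.31 between the variants had an adjusted p of 0.0423, which lay above 0.05 without each library in turn, from 0.0666 to 0.167. It was also lost without a filter (0.0680), with a filter of 5 FPKM (0.0511), with median ratio factors (0.0501), after quantile normalization (0.0889), with the 4 libraries alone (0.0614) and with a replicate block (0.0633).

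Col9a1 (chromosome 1, 24184449 to 24259577) encodes a chain of type IX collagen, which coats cartilage fibrils. It had 0.365 and 0.595 FPKM (B16-F1), 0.813 and 0.821 (B16-F1R2) and 1.58 and 1.98 (B16-F1R2L). Col20a1 (chromosome 2, 180721240 to 180752245), a less studied FACIT, had 0.309 and 0.387, 0.579 and 0.526, and 1.19 and 1.65 FPKM. For both genes the lines did not overlap and stood in the same order as for Col16a1. In B16-F1R2 the changes of 0.69 for Col9a1 (adjusted p = 0.0556, limma) and 0.55 for Col20a1 (adjusted p = 0.104) did not pass the test. Both depended on the processing. Quantile normalization turned them into called falls of -0.73 (adjusted p = 0.0323) and -1.23 (adjusted p = 0.0163). They were called higher without a trend in the variance (adjusted p = 0.0452 and 0.0474) and after correction for gene length and GC content (0.0113 and 0.0229), Col9a1 also with a replicate block (0.0465) and without B16-F1 replicate 2 (0.0224). In B16-F1R2L Col9a1 rose by 1.71 (adjusted p = 0.00163) and Col20a1 by 1.75 (adjusted p = 0.00140), the latter not called after quantile normalization (0.35). Against B16-F1R2 the rises were 1.02 (adjusted p = 0.0341) and 1.20 (adjusted p = 0.0216), both lost without either B16-F1R2 library or B16-F1R2L replicate 2. The other type IX chains stayed below the filter, with 0.272 to 0.616 FPKM for Col9a2 and 0.277 to 0.530 for Col9a3.

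Of the 4 transmembrane genes, 1 was tested. Col17a1 (chromosome 19, 47720834 to 47766584) encodes the collagen of hemidesmosomes, the junctions that bind epithelial cells to the basement membrane. It had a listed 0 and 0.0474 FPKM (B16-F1), 1.28 and 1.66 (B16-F1R2) and 2.41 and 2.27 (B16-F1R2L). Both variants stood far above B16-F1, and the lung line highest. Col17a1 passed the filter only through the variants, the lines in which it is high. The log2 fold changes against B16-F1 were 3.69 (standard error 0.27, adjusted p = 9.00e-05, limma) and 4.33 (0.27, adjusted p = 4.56e-05). Their size rests on the pseudocount, from 1.27 to 5.94 and from 1.71 to 6.62. The difference of 0.64 between the variants did not pass the test (adjusted p = 0.133), though with a pseudocount of 1 it did.

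The multiplexins are basement membrane collagens with many interruptions in the helix. Col15a1 (chromosome 4, 47221033 to 47326039) had 1.47 and 1.85 FPKM (B16-F1), 1.82 and 1.82 (B16-F1R2) and 1.90 and 2.29 (B16-F1R2L). B16-F1 and B16-F1R2 overlapped. The log2 fold changes of 0.14 and 0.32 against B16-F1 (adjusted p = 0.515 and 0.142, limma) did not pass the test. Both were negative after quantile normalization, and after correction for gene length and GC content the value in B16-F1R2L was 0.41 and passed the threshold (adjusted p = 0.0350).

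The other 31 genes did not pass the filter and were not tested in the fit described. Their highest value was 0.958 FPKM, for Col2a1 in B16-F1R2L. Among them 5 genes (Col6a1, Col6a2, Col6a4, Col6a6 and Col13a1) were listed at 0 in all libraries, so of the chains of type VI collagen, the beaded filament, neither of the common chains Col6a1 and Col6a2 had a value. There were 7 genes that reached 0.5 FPKM in a library, and 24 that did not.

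Among these 7, Col2a1, the cartilage fibril chain, was listed at 0 in both B16-F1 libraries and had 0.702 and 0.573 FPKM (B16-F1R2) and 0.958 and 0.658 (B16-F1R2L). Col26a1 was also listed at 0 in both B16-F1 libraries, against 0.459 and 0.459, and 0.511 and 0.457. Col18a1, the multiplexin from which endostatin is cut, had 0.0316 and a listed 0 (B16-F1), 0.682 and 0.502 (B16-F1R2) and 0.613 and 0.548 (B16-F1R2L). For these 3 genes the ranges of the variants overlapped. Col12a1, a FACIT of tendon and skin, had 0.0469 and 0.0426, 0.579 and 0.682, and 0.153 and 0.0776 FPKM, so it was high in B16-F1R2 alone. Col11a2, a chain of cartilage fibrils, had 0.787 and 0.777, 0.229 and 0.281, and 0.520 and 0.363, and was highest in B16-F1. When limma was run without a filter, 39 collagen genes with a value were tested among 16483 genes. In B16-F1R2 against B16-F1 16 of them rose and 4 fell, where 21.3% of all genes rose and 19.3% fell. In B16-F1R2L against B16-F1 16 rose and 3 fell (23.2% and 19.0% of all genes), and between the variants 1 rose and 4 fell (5.60% and 4.51%). These counts include genes listed at 0 in B16-F1, such as Col2a1 and Col26a1, for which no fold is given. In that fit Col18a1 rose by 2.58 (adjusted p = 0.00114) and Col12a1 by 2.33 (adjusted p = 0.00143) in B16-F1R2, and Col11a2 fell by 1.32 (adjusted p = 0.00732). Col12a1 was lower in the lung line than in B16-F1R2, by -1.78 (adjusted p = 0.0201).

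The ratio of chains that share a trimer was compared between the lines for types I and IV and is described for types V and IX. The FPKM ratio of Col1a1 to Col1a2 was 0.357 and 0.419 (B16-F1), 14.9 and 16.4 (B16-F1R2) and 1.58 and 1.01 (B16-F1R2L). That of Col4a1 to Col4a2 was 2.08 and 1.74, 7.63 and 6.58, and 8.80 and 8.17. Both ratios were lowest in B16-F1, the first highest in B16-F1R2 and the second in B16-F1R2L. The log2 ratio of Col1a1 to Col1a2 differed from B16-F1 by 5.34 in B16-F1R2 and by 1.71 in B16-F1R2L, and that of Col4a1 to Col4a2 by 1.90 and 2.16. The libraries of the lines did not overlap in either ratio, and each difference had a two-sided p of 0.333 in the exact permutation test, the smallest that 2 libraries against 2 can give. For type IX collagen the ratios of Col9a1 to Col9a2 were 0.919 and 1.82 (B16-F1), 1.53 and 3.02 (B16-F1R2) and 2.56 and 3.79 (B16-F1R2L), so B16-F1R2 overlapped both other lines, which did not overlap each other. The ratio of Col9a1 to Col9a3, at 1.32 and 2.05, 2.18 and 1.62, and 2.98 and 4.46, overlapped between B16-F1 and B16-F1R2. For type V collagen, Col5a2, the usual partner of Col5a1, was listed at 0 in 4 libraries and had at most 0.0102 FPKM. Col5a1 exceeded Col5a3 by 1.20 and 1.34 times in B16-F1, 18.0 and 16.7 times in B16-F1R2, and 7.33 and 5.32 times in B16-F1R2L. Col3a1, which lies 24614 bases from Col5a2 and encodes the type III collagen of skin, reached at most 0.0270 FPKM.

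**Figure D4:**
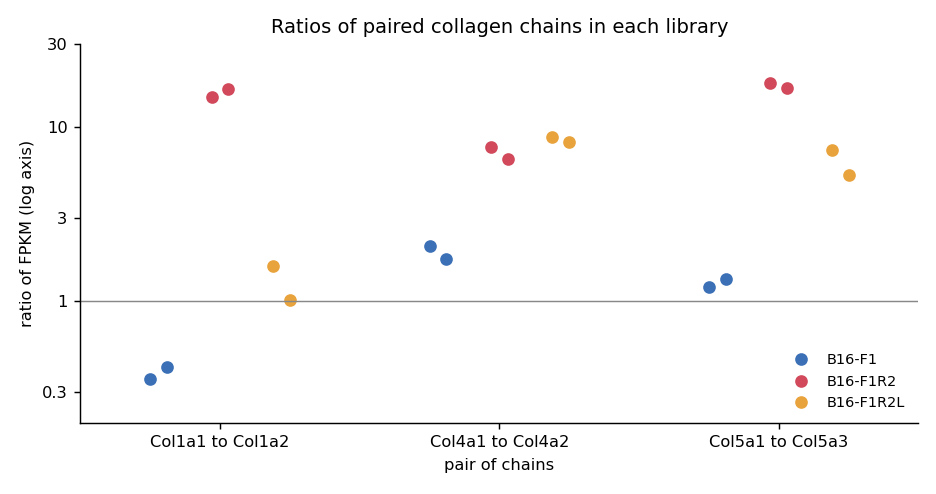
Each point is the ratio of the FPKM of 2 collagen chains in 1 library, on a log axis, with the line at a ratio of 1. Col1a1 to Col1a2 lies at 0.357 and 0.419 (B16-F1), 14.9 and 16.4 (B16-F1R2) and 1.58 and 1.01 (B16-F1R2L), while Col4a1 to Col4a2 is high in both variants.

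Of the collagen genes, 35 had a promoter in the RefSeq table of GRCm38.p6. Over all 32851 windows of 250 bases before a start, searched on both strands, the CCAAT box (CCAAT) occurred in 33.8%, the TATA box (TATAAA) in 12.4%, the GC box (GGGCGG) in 32.7% and the M-box bound by MITF (TCATGTG) in 3.25%. Of the 35 collagen genes, 13, 5, 21 and 1 held these motifs. Col8a1, Col17a1 and Col5a1 had the largest log2 fold changes in B16-F1R2 against B16-F1 among the genes in this table, and their windows are shown in the direction of the gene, with motif matches in capitals, at chr2:27886175-27886424 (plus strand), chr16:57754738-57754987 (minus strand) and chr19:47692043-47692292 (minus strand) of GRCm38.p6. No match overlaps another in them.
Col5a1: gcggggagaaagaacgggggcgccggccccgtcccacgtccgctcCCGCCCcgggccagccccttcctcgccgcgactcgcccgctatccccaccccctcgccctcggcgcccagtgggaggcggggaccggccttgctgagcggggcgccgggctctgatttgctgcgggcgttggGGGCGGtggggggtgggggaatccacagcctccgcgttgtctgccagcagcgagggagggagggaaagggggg
Col8a1: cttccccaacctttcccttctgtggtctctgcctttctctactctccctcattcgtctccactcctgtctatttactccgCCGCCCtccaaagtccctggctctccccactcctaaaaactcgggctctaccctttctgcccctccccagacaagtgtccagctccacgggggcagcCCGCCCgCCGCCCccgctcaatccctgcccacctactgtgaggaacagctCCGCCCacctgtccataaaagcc
Col17a1: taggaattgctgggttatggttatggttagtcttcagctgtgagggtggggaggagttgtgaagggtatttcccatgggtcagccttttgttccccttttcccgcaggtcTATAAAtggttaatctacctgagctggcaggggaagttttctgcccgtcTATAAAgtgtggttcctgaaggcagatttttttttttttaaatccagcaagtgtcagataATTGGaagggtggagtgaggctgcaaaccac
The window of Col5a1 held 2 GC boxes and that of Col8a1 held 4, while that of Col17a1 held 2 TATA boxes and 1 CCAAT box. No M-box was among these letters.

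Collagen chains are hydroxylated, folded, secreted, trimmed and crosslinked by other proteins and bound by receptors on cells. Of 43 listed genes with these roles, 26 passed the filter. In B16-F1R2 against B16-F1, 12 of them were higher and 8 lower (28.2% and 27.2% of all tested genes), in B16-F1R2L against B16-F1 11 and 8 (29.5% and 27.1%), and in B16-F1R2L against B16-F1R2 4 and 6 (12.1% and 10.5%). The median log2 fold changes were 0.02, 0.07 and -0.01. The last pair of counts depended on single libraries, with 0 higher and 0 lower without B16-F1R2 replicate 1 (3 and 6 at an unadjusted p under 0.05 in limma), 1 and 1 without B16-F1R2 replicate 2 or B16-F1R2L replicate 2, and 2 and 3 without either B16-F1 library. The calls of Serpinh1, Pcolce, Ctage5, Adamts14 and Plod2 between the variants were also lost without a filter.

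In propeptide processing, 3 of 8 listed genes were tested and rose in both variants, where 28.2% and 29.5% of all tested genes were higher, and the role itself was not tested. Pcolce, which speeds the removal of the C-terminal propeptide of fibrillar procollagens, had 35.0 and 37.2 FPKM (B16-F1), 216 and 210 (B16-F1R2) and 182 and 161 (B16-F1R2L). Its level thus lay above that of every collagen chain, and it rose by 2.56 (adjusted p = 1.70e-06, limma) in B16-F1R2. Bmp1, the protease that makes this cut, had 4.54 and 5.21, 9.67 and 10.2, and 9.21 and 8.51 FPKM and rose by 1.02 in B16-F1R2. Adamts14, which removes the N-terminal propeptide, had 1.92 and 1.68, 3.05 and 3.19, and 4.27 and 4.16 FPKM and rose by 0.77. Between the variants Pcolce was lower in B16-F1R2L, by -0.31, and Adamts14 higher, by 0.42. The Pcolce call was lost without either B16-F1R2 library or B16-F1R2L replicate 2 (adjusted p = 0.0711 to 0.107, limma), and the Adamts14 call without each of the 6 libraries in turn (0.0529 to 0.159). The Adamts14 call also ended after quantile normalization, with the 4 libraries alone and with a replicate block, and the Pcolce call without a trend. Adamts2, the main N-propeptidase of skin, stayed at or below 0.157 FPKM.

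In folding and secretion, 2 of 6 tested genes rose and 2 fell in B16-F1R2, near the 28.2% and 27.2% of all tested genes. Fkbp10, a chaperone of type I procollagen, had 1.47 and 1.52 FPKM (B16-F1), 23.6 and 23.5 (B16-F1R2) and 21.9 and 21.4 (B16-F1R2L). It had the largest change of the list, 3.89 (standard error 0.06) in B16-F1R2 and 3.77 (0.06) in B16-F1R2L. Serpinh1, the collagen chaperone HSP47, was abundant in all lines, at 566 and 559, 691 and 680, and 617 and 560 FPKM. It rose by 0.28 in B16-F1R2 (adjusted p = 0.00613, limma), which was lost without B16-F1 replicate 2 (adjusted p = 0.0528), and was lower in the lung line than in B16-F1R2 by -0.22, a call lost without each library but B16-F1R2L replicate 1. Rescaling to a sum of 1000000 gave -0.11 (adjusted p = 0.101), and no filter, no trend and the 4 libraries alone also ended the call (0.0749 to 0.0948). Sec23a, a coat protein of vesicles that leave the endoplasmic reticulum, fell by 0.47 in B16-F1R2. Ctage5, a partner of Mia3, was higher in the lung line than in B16-F1R2 by 0.29, a call lost without each library but B16-F1R2L replicate 1. No trend, the 4 libraries alone and a replicate block also ended the Ctage5 call.

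In hydroxylation and glycosylation, 6 of 11 tested genes rose and 4 fell in B16-F1R2, where 28.2% of all tested genes were higher and 27.2% lower. Leprel1 and Leprel2, prolyl 3-hydroxylases, rose by 1.14 and 0.77, and P4ha2, a catalytic subunit of prolyl 4-hydroxylase, by 1.03. Leprel1 had 10.4 and 9.69 FPKM (B16-F1), 22.1 and 22.4 (B16-F1R2) and 16.8 and 16.5 (B16-F1R2L), and was lower in the lung line than in B16-F1R2 by -0.42, a call lost without B16-F1R2 replicate 1 (adjusted p = 0.0538, limma). Plod2, a lysyl hydroxylase of the collagen ends, was higher in the lung line than in B16-F1R2 by 0.32, and the call was lost without either B16-F1R2 library or the second B16-F1R2L library.

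The crosslinking enzymes split. Loxl2 had 2.12 and 2.45 FPKM (B16-F1), 4.92 and 5.05 (B16-F1R2) and 4.02 and 4.21 (B16-F1R2L), and rose by 1.10 in B16-F1R2. Loxl3 had 19.3 and 21.0, 9.64 and 10.1, and 9.06 and 8.48 FPKM and fell by 1.03. Lox itself was listed at 0 in all libraries. Among the collagen receptors, Ddr1 fell by 0.45 in B16-F1R2, Itgb1 was near 0 in change (-0.01, adjusted p = 0.892, limma), and Ddr2 was higher in the lung line than in B16-F1R2 by 0.76, with 30.4 and 37.4 FPKM against 18.7 and 21.1, a call lost without B16-F1R2 replicate 1 (adjusted p = 0.0632).

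**Figure D5:**
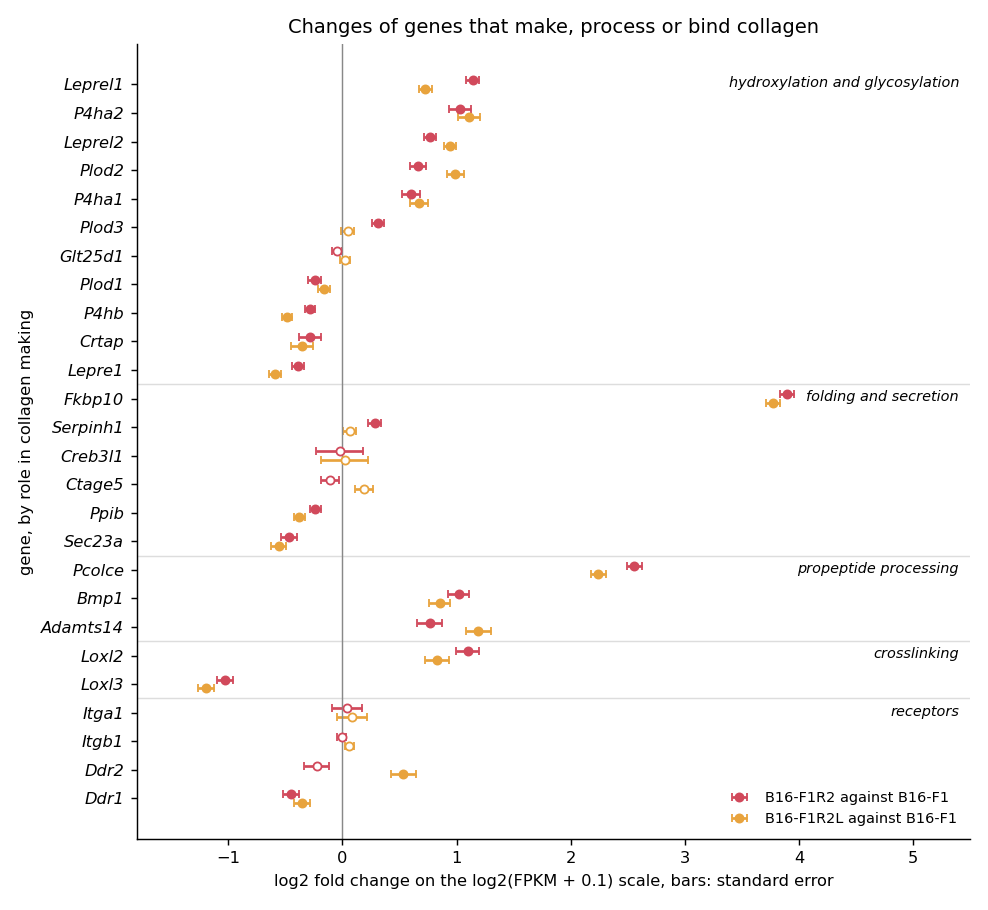
Points give the log2 fold change on the log2(FPKM + 0.1) scale of the 26 tested genes that make, process or bind collagen, by role, in B16-F1R2 and B16-F1R2L against B16-F1, bars the standard error, and filled points an adjusted p under 0.05 from limma. Fkbp10 (3.89 and 3.77) and Pcolce (2.56 and 2.24) lie far to the right, and Loxl3 (-1.03 and -1.19) farthest to the left.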

How the data were processed

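RNA-seq data of 6 libraries, 2 from each of 3 melanoma lines, were analysed. The authors purified polyadenylated RNA and made libraries with a kit that keeps the strand. The submitters' processing notes name TopHat2 2.0.10, Bowtie 1.0.0, SAMtools 0.1.1.9, FastQC 0.10.1, Cuffnorm and DESeq2 and the build mm9, without their roles. The gene annotation and any strand setting are not given in the sources used here. The authors deposited 1 table of FPKM values, which are scaled per length and depth.

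From the deposited FPKM, log2(FPKM + 0.1) was taken for the 11379 genes that reached 1 FPKM in 2 or more libraries. The lines were then contrasted in limma 3.58.1 (R 4.3.3, moderated with a trend) over all 6 libraries without a block, with Benjamini-Hochberg adjustment over all tested genes and a threshold of 0.05. Chain ratios were compared by an exact two-sided permutation test. On simulated data for B16-F1R2 against B16-F1 with 200 of 11379 genes changed, 85 of 100 genes changed by a log2 of 1 and 94 of 100 changed by 2 were recovered, with 7 false calls. In the data 55.4% of the tested genes were called in this comparison, so these figures describe only the simulated setting.

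Positions, coding sequences and exons came from the NCBIM37 annotation, and promoters from RefSeq (GRCm38.p6). Depth was estimated from 2785 genes with 1 transcript of at least 2000 bases, and no interval that needs read counts was computed.

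Named were all collagen chain genes past the filter, and those below it that reached 0.5 FPKM or share a trimer or gene pair with a named gene. Of the genes that process or bind collagen, up to 3 per role with the largest called change without overlap in B16-F1R2 against B16-F1 were named, and up to 2 per role between the variants. Adamts2, Lox, Mia3, Itgb1, Col3a1, Col22a1, Col6a1, Col6a2, Col6a4, Col6a6, Col13a1 and the ratios of Col5a1 to Col5a3 and of Col9a1 to Col9a2 and Col9a3 fall outside this rule and were picked with their values in view. The genes and lists were chosen with earlier results of these data known. Alternatives were pseudocounts of 1 and 0.01, no filter or one of 5 FPKM, rescaling to a sum of 1000000, median ratio factors, quantile normalization, no trend, the 4 libraries compared alone, a replicate block, a log2 fold change of at least 1, a correction for gene length and GC content (MASS 7.3.60.0.1), and leaving out each library. Other steps used Python 3.11.15, pandas 2.3.3, scipy 1.17.1 and matplotlib 3.10.9.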

Additional observations from a re-analysis of the deposited data

Results flagged for a closer look

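For 4 collagen genes the change from B16-F1 differed between the variants by a log2 fold change of at least 1, tested as B16-F1R2L against B16-F1R2 in limma with Benjamini-Hochberg adjustment. The change in B16-F1R2L minus that in B16-F1R2 was -2.73 for Col1a1 (adjusted p = 0.000996), -1.51 for Col8a1 (adjusted p = 0.0156), 1.20 for Col20a1 (adjusted p = 0.0216) and 1.02 for Col9a1 (adjusted p = 0.0341). For each gene the libraries of the variants did not overlap. All 4 genes lay under 1 FPKM in both B16-F1 libraries and were picked by the difference that was tested. Col8a1 passed the filter only through B16-F1R2, and Col20a1 and Col9a1 only through B16-F1R2L. The adjusted p-values are therefore descriptions and not support. Col1a1 kept its call under all 18 alternatives. The calls of Col8a1, Col20a1 and Col9a1 were each lost without B16-F1R2 replicate 1, B16-F1R2 replicate 2 or B16-F1R2L replicate 2, that of Col9a1 also without B16-F1R2L replicate 1 or a filter, and that of Col8a1 also with a pseudocount of 0.01.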

How the results depend on the processing

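Of 58 log2 fold changes of named genes, 50 kept their direction and 22 also their side of the threshold under every alternative that gave a value, which was 17 for genes that the filter of 5 FPKM removed and 18 for the others. Of 216 counts recomputed, 172 stayed within 1.5 times the main count. Quantile normalization, applied to the filtered genes, turned Col15a1 (-0.17), Col1a2 (-0.24), Col20a1 (-1.23) and Col9a1 (-0.73) in B16-F1R2 against B16-F1, Col15a1 (-0.18) and Col4a2 (-0.85) in B16-F1R2L against B16-F1, and Col15a1 (-0.016) and Col4a5 (-0.042) between the variants. The length and GC correction turned Col4a5 to -0.0055 between the variants. Col15a1 in B16-F1R2 against B16-F1 ran from -0.022 to 0.29 when 1 library was left out, the lowest without B16-F1 replicate 1. The cause was not tested.

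For collagen genes higher and lower in B16-F1R2 against B16-F1 (8 and 1), no filter gave 16 and 4, a filter of 5 FPKM 5 and 0, quantile normalization 3 lower and a log2 fold change of at least 1 gave 0 lower. In B16-F1R2L against B16-F1 (10 and 0), no filter gave 16 and 3, a filter of 5 FPKM 5 higher, and quantile normalization 2 lower. Between the variants (5 higher), no filter gave 1, a filter of 5 FPKM 0, quantile normalization 3, the 4 libraries alone 3, a log2 fold change of at least 1 gave 2, and leaving out 1 library 0 to 3. For genes that process or bind collagen, a log2 fold change of at least 1 gave 6 higher and 1 lower for B16-F1R2, 4 and 1 for B16-F1R2L, and 0 and 0 between the variants. Between the variants (4 and 6), no filter gave 1 higher, no trend 2 and 2, the 4 libraries alone 2 and 3, rescaling 6 and 2, and leaving out 1 library 0 to 3 higher and 0 to 6 lower. Rescaling also moved the median of all genes to 0.12 in B16-F1R2L against B16-F1 and to 0.13 between the variants.

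The replicate numbers did not pair the libraries, since deviations of same-numbered libraries correlated at 0.05, -0.10 and 0.08. With the replicate block, 9 collagen genes rose and 1 fell for B16-F1R2, 10 and 0 for B16-F1R2L, and 4 and 3 between the variants, and of the genes that process or bind collagen 2 were higher between the variants. With 2 libraries per line the spread is known only roughly, 24 of the 44 chains stayed under 0.5 FPKM in every library, and values near what 1 read is worth cannot be told from 0.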

Other observations

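Cd79a, a part of the B-cell receptor, had a listed 0 and 0.0593 FPKM (B16-F1), 12.7 and 12.4 (B16-F1R2) and 17.1 and 15.9 (B16-F1R2L), while Ptprc, Cd3e and Itgam were listed at 0 in all libraries.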
